A study of Mus musculus with 18 samples.

Results

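The genes described here encode the secreted and membrane-borne start of the Wnt pathway: 19 Wnt ligands, 10 Frizzled receptors (Fzd), 4 R-spondins (Rspo), the 3 R-spondin receptors Lgr4, Lgr5 and Lgr6, 4 secreted Frizzled-related proteins (Sfrp) and 4 Dickkopf proteins (Dkk). They were taken by symbol, as a set of families picked with earlier results of these data known, and are 44 of the 21961 protein-coding genes, and of the 55450 gene identifiers, in the count table. Polyadenylated RNA was sequenced from C2C12 cells, a mouse myoblast line that leaves the cell cycle and forms myotubes when serum is reduced. There were 3 lines, each sampled as myoblasts in 10% fetal bovine serum and as myotubes on day 3 in 2% horse serum, with 3 libraries (A, B and C) per group and 18 in all. Cells of all 3 lines had taken up the Cas9 and EGFP plasmid pX458 and were sorted for EGFP. The control received the plasmid without guides and was kept as a sorted population. The other lines received pairs of guides against the promoter of Meg3, a noncoding RNA of the Dlk1-Dio3 cluster, and are clones grown from diluted cells, labelled Dlk1-Dio3 overexpressor and Dlk1-Dio3 knockout. The labels name 1 line for each genotype, so genotype and clone cannot be told apart. They do not say whether libraries of a group came from separate cultures, and p-values measure only the spread between these samples, which may be technical.

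Wnt proteins are secreted, lipid-modified ligands that bind the cysteine-rich domain of Frizzled receptors. Together with the coreceptors Lrp5 and Lrp6 this stabilises β-catenin, which acts with Tcf/Lef proteins at target genes such as Axin2. Other Wnts, such as Wnt5a with the receptor Ror2, signal without β-catenin. R-spondins bind Lgr4, Lgr5 or Lgr6 and keep the ubiquitin ligases Rnf43 and Znrf3 from removing Frizzleds from the cell surface. Sfrp proteins carry a Frizzled-like domain and bind Wnts outside the cell, and Dkk1, Dkk2 and Dkk4 bind Lrp5 and Lrp6. In skeletal muscle the pathway takes part in somite myogenesis and in the renewal and differentiation of satellite cells.

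Library totals ran from 41544358 to 79140702 counts. Meg3, whose promoter was targeted, had no count in any control or knockout library and stood at 133 ± 22.9 CPM in overexpressor myoblasts and 92.6 ± 13.4 CPM in overexpressor myotubes (mean ± SD, n = 3, as for every group mean here; CPM is the depth-scaled count with TMM factors). It therefore separates the overexpressor from the other lines but does not check the knockout label. An 8-gene list of muscle markers, among them Myog, Myh3 and Ckm, summed to between 1309.7 and 1519.8 CPM in control myoblasts, 2598 and 3292 in overexpressor myoblasts, 11531 and 14383 in knockout myoblasts, and 14812 and 15203 in control myotubes. Knockout myoblasts thus carried a summed muscle marker level near that of control myotubes before serum was reduced, and Myh3, embryonic myosin heavy chain, was at 3202 ± 459 CPM there against 47.2 ± 12.0 CPM in control myoblasts. Single genes of the list differed. Against control myotubes, Ckm was higher (260 to 321 against 209 to 241 CPM) and Myog lower (1082 to 1249 against 1663 to 1768 CPM). Myf5 was at 23.2 to 25.2 CPM, against 23.7 to 26.5 in control myoblasts and 4.85 to 6.94 in control myotubes. A 4-gene proliferation list summed to between 754 and 1073 CPM in the 9 myoblast libraries and between 72.9 and 179.8 CPM in the 9 myotube libraries. Over the 18 libraries, markers of fat cells (5 genes) summed to between 0.023 and 0.455 CPM and those of endothelium (3 genes) to between 0.038 and 0.559 CPM. Bone markers (5 genes) summed to between 0.146 and 2.52 CPM, epithelial markers (5 genes) to between 0.022 and 2.38 CPM and leukocyte markers (3 genes) to between 0.653 and 1.82 CPM. Of these, Adipoq, Plin1, Ibsp, Epcam, Krt5 and Adgre1 had 3 counts or fewer in every library. The ranges of some of these markers did not overlap between groups. Alpl had 30 to 56 counts in control myotubes and 0 to 3 in mutant myotubes. Bglap2 was at 0.649 to 1.23 CPM in control, 0.951 to 1.13 in overexpressor and 0.120 to 0.368 in knockout myotubes. Cdh1 was at 0.530 to 0.956, 0.888 to 1.21 and 1.84 to 2.30 CPM in the same groups. Of 3 cartilage markers, Acan had 3 counts or fewer in every library, and Col2a1 stayed under 2 CPM. Sox9 was at 85.9 to 102.9 CPM in control, 175.7 to 189.7 in overexpressor and 109.0 to 122.0 in knockout myoblasts. The part of these cells or genes in the results below was not tested. The overexpressor myotube library C stood apart from its group, with a chi-square per degree of freedom of 112 and 118 against A and B, where all other replicate pairs lay between 4.72 and 55.0. Another scaling moved the median log2 fold change of all genes by over 0.1 in 6 of the 11 comparisons, at most from 0.07 to -0.17 for control differentiation with library totals. The share of higher genes among all calls then went from 54.0% to 37.9% in control differentiation, from 45.5% to 34.0% in knockout differentiation and from 45.8% to 57.8% in overexpressor against control myotubes. For the difference of differentiation between a mutant line and control in the overexpressor it went from 42.7% to 53.9% by DESeq2 size factors and to 61.0% by library totals, and in the knockout from 40.4% to 52.0% by DESeq2 size factors. No call of a member named with values reversed its direction under any scaling.

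Of the 44 genes, 30 passed the count filter and were tested: 10 Wnts, 9 Frizzleds, 3 Lgr, 3 R-spondins, 3 Sfrp and 2 Dkk genes. The other 14 had at most 11 counts in a library, and 4 of them (Wnt8a, Wnt9b, Fzd10 and Dkk4) had none anywhere. Wnt7a, a satellite cell Wnt that acts through Fzd7, had 2 counts in all 18 libraries together, Wnt1 had 56, Wnt2b 35, Dkk1 6 and Sfrp5 6. Wnt3 (0 to 36 counts per library) and Wnt7b (1 to 95) were tested but stayed under 1 CPM in every group mean, so 28 genes are described by value. A gene that passed the filter only through the group where it is high had to differ between groups, so the counts of called genes below describe the 30 tested genes and not the family.

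**Figure D1:**
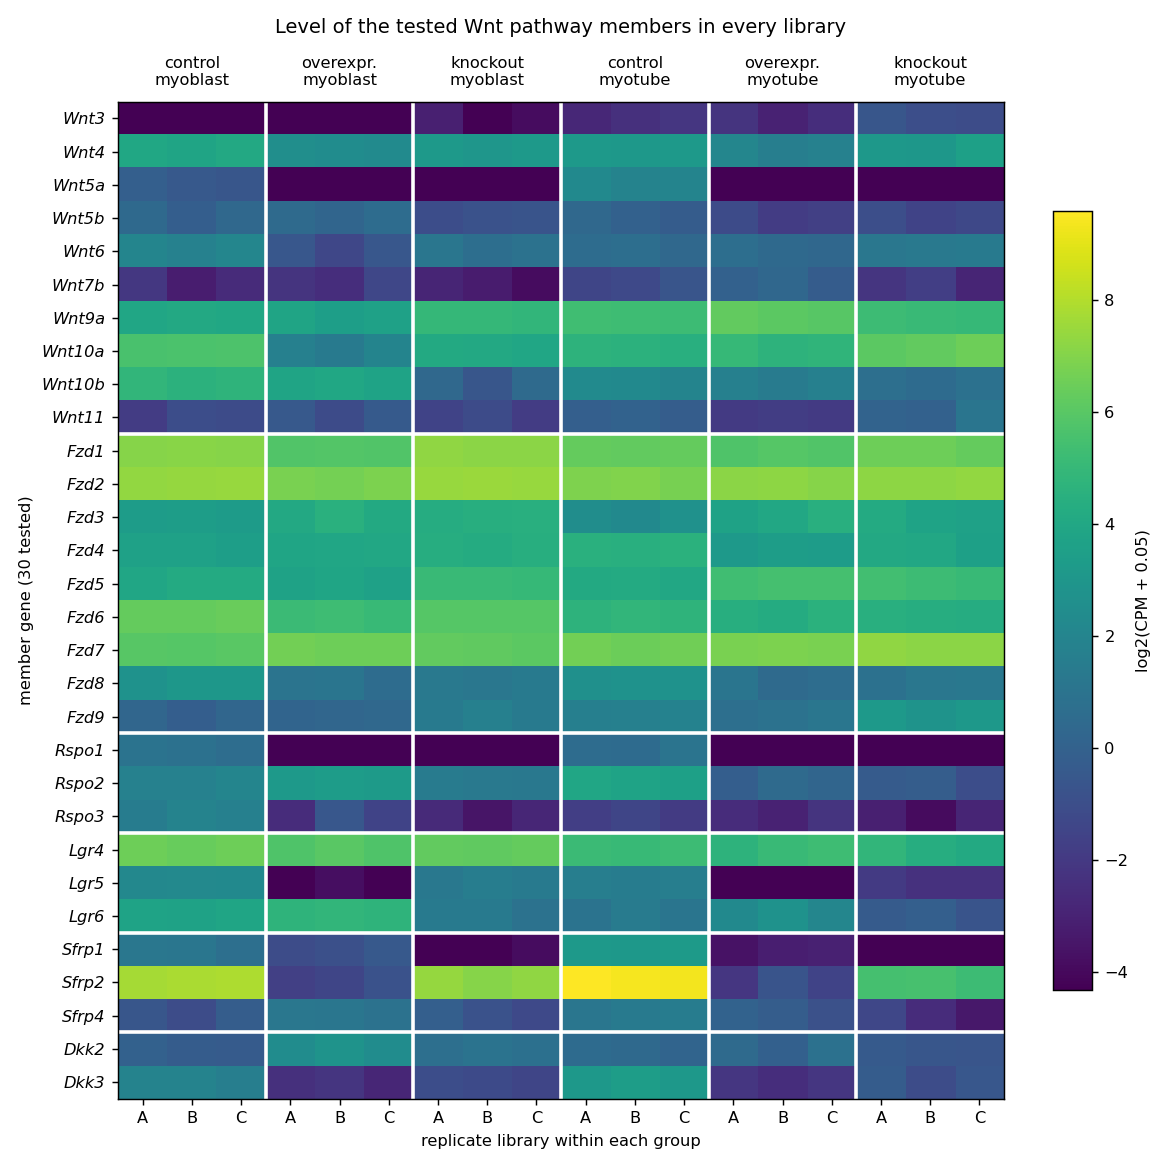
Level of the 30 tested genes in each of the 18 libraries, as log2(CPM + 0.05), with libraries A, B and C of each group in adjacent columns and families separated by white lines. Sfrp2 is the brightest row in control myotubes and dark in all 6 overexpressor libraries, while Wnt5a and Rspo1 are at 0 in all 12 libraries of the overexpressor and knockout lines.

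In control myoblasts the most abundant Wnt message per kb of exons was Wnt10a, at 20.5 ± 0.855 CPM per kb, followed by Wnt10b at 7.85 ± 0.631 and Wnt9a at 4.71 ± 0.267. The Wnt genes together summed to 39.3 ± 1.03 CPM per kb and the Frizzleds to 115 ± 2.85. Sfrp2 alone was at 105 ± 5.42 CPM per kb in control myoblasts and 325 ± 31.1 in control myotubes, above any Wnt or Frizzled gene in either group. The R-spondins summed to 2.66 ± 0.137 CPM per kb and the Dkk genes to 1.25 ± 0.126. Control cells thus held more message per kb for Sfrp2 and for the receptors than for the ligands.

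Most tested genes differed between the lines, and more were lower than higher in each mutant line against control. In myoblasts 18 of the 30 were lower in the overexpressor and 7 were higher, where 19.7% of all 17912 tested genes were lower and 20.7% higher (edgeR quasi-likelihood test, Benjamini-Hochberg adjusted p under 0.05 over all tested genes, as for every call here). In knockout myoblasts 16 were lower and 7 higher, against a background of 26.6% and 26.4%. In myotubes 17 were lower and 7 higher in the overexpressor, with 30.9% and 26.2% of all genes called, and 18 were lower and 9 higher in the knockout, with 37.0% and 31.0%. The median log2 fold changes of the 30 genes were -0.61, -0.55, -0.69 and -0.82 in that order, and those of all tested genes 0.02, 0.02, -0.04 and -0.07. Both mutant lines were compared with the same control libraries, so these counts are not independent of each other. The lines compared with each other differed at 11 genes higher and 14 lower in overexpressor than knockout myoblasts (25.7% and 26.9% of all genes) and at 9 higher and 12 lower in myotubes (30.6% and 29.1%). Without overexpressor myotube library C the overexpressor myotube counts were 8 higher and 18 lower against control. In bulk RNA, fewer cells that express a gene and less RNA per cell cannot be told apart.

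Sfrp2 (ENSMUSG00000027996, chr3:83766321-83774316 in GRCm38) binds Wnts in the extracellular space and was nearly absent from the overexpressor. It was at 212, 230.5 and 234 CPM in control myoblasts A, B and C and at 772, 684 and 641 CPM in control myotubes. In the overexpressor it was at 0.260, 0.324 and 0.508 CPM in myoblasts and 0.178, 0.563 and 0.292 CPM in myotubes, so every overexpressor library lay below 1 CPM and every control library above 200 CPM. That is a fall of 625-fold as myoblasts (log2 fold change -9.29 ± 0.23 (SE), adjusted p = 2.99e-14). At the myotube stage the fall was 1964-fold (log2 fold change -10.94 ± 0.23 (SE), adjusted p = 2.01e-15). The knockout line kept the message in myoblasts, at 168, 136 and 153 CPM, 1.48-fold below control (log2 fold change -0.57 ± 0.14 (SE), adjusted p = 0.00276), and at 44.5, 46.7 and 37.8 CPM in myotubes, 16.3-fold below control (log2 fold change -4.02 ± 0.16 (SE), adjusted p = 1.96e-12). With differentiation Sfrp2 rose in control cells and fell in knockout cells, and no group overlapped another between these 4. Part of its exons is overlapped by the opposite-strand gene Gm26771, and whether counting used strand is not stated in the sources used here. Its promoter, the 250 bases before the start at chr3:83766071-83766320 on the + strand, is shown because no other gene here fell under 1 CPM from so high a level; CpG dinucleotides are in capitals. Below it stands the promoter of Rspo1 (chr4:124986180-124986429, + strand), the R-spondin without a count in either mutant line. Both come from RefSeq (GRCm38.p6).
Sfrp2: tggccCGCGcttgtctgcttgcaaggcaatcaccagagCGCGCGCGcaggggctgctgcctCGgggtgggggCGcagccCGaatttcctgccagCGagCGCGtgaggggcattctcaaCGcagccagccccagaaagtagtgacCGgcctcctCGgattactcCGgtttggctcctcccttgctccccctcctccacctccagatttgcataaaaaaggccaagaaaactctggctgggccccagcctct
Rspo1: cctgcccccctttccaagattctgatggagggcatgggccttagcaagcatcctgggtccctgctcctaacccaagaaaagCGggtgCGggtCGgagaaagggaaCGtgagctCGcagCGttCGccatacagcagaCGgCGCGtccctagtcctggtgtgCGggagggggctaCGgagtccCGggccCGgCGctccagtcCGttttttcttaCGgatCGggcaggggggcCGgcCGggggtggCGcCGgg
The Sfrp2 window holds 16 CpGs and 63.6% G and C, and 25.4% of the 32851 mouse promoters in the table have as many CpGs; the Rspo1 window holds 22 CpGs and 66.8% G and C, which 14.8% reach. Neither holds CTTTGA, the core of the Tcf/Lef motif, on either strand (13.8% of all promoters and 4 of 32 promoters of these genes do), nor an E-box CANNTG (66.2% and 19 of 32). These letters describe the sequence only.

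The other Sfrp genes were far less abundant. Sfrp1 was at 2.27, 2.17 and 1.67 CPM in control myoblasts and 9.06, 8.65 and 9.42 CPM in control myotubes. In the overexpressor it was at 0.419, 0.474 and 0.693 CPM in myoblasts and 0.030, 0.063 and 0.069 CPM in myotubes (-1.95 ± 0.22 and -7.31 ± 0.28 log2 units from control, ± SE; adjusted p = 2.63e-06 and 2.14e-12). Knockout myoblasts had 1 Sfrp1 count in 3 libraries, a ratio of control to knockout depth-scaled counts of 324 (exact 95% interval 57.7 to 12837), covering counting error only. Knockout myotubes had no count, at least 165-fold below control when set at 3 counts per library. Sfrp4 went the other way in overexpressor myoblasts, where it was higher than in control (2.10 ± 0.196 against 0.615 ± 0.201 CPM; log2 fold change 1.78 ± 0.37 (SE), adjusted p = 6.89e-04), and was lower than control in overexpressor and knockout myotubes (0.765 ± 0.249 and 0.167 ± 0.156 against 2.497 ± 0.328 CPM). In overexpressor myoblasts Sfrp4 made up 63.7% of the summed Sfrp level per kb, which was itself 0.791 ± 0.047 CPM per kb against 105 ± 5.38 in control. All 3 tested Sfrp genes rose in control differentiation, by 2.15, 1.63 and 2.03 log2 units for Sfrp1, Sfrp2 and Sfrp4.

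**Figure D2:**
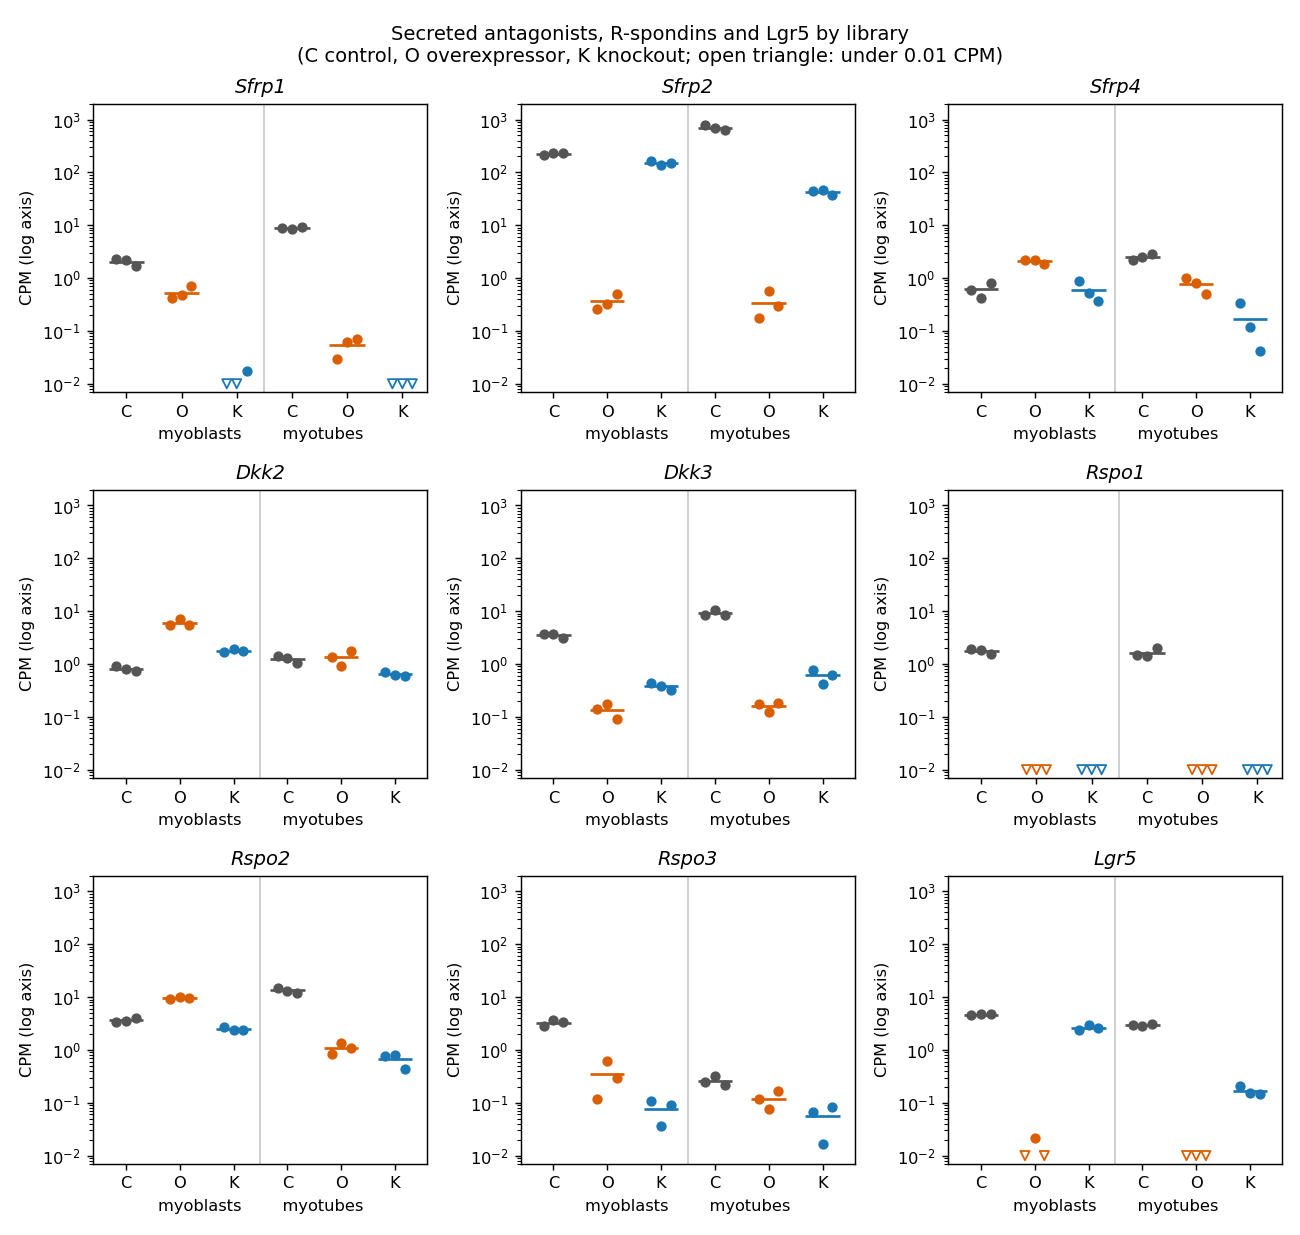
CPM of the secreted antagonists, the R-spondins and Lgr5 in every library on a log axis, with the group mean as a bar; C, O and K are the control, overexpressor and knockout lines, myoblasts left and myotubes right, and an open triangle is a library under 0.01 CPM. Rspo1 has counts only in the 6 control libraries, and Rspo2 is above control in overexpressor myoblasts and below it in overexpressor myotubes.

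Of the Dickkopf genes, Dkk3 was lower and Dkk2 higher than control in mutant myoblasts of either line. Dkk2, an Lrp6 ligand, was at 0.936, 0.788 and 0.735 CPM in control myoblasts, 5.37, 6.97 and 5.48 in overexpressor myoblasts and 1.66, 1.95 and 1.73 in knockout myoblasts, with no overlap between the 3 groups. Its rise over control was 7.20-fold in the overexpressor (log2 fold change 2.85 ± 0.21 (SE), adjusted p = 3.71e-09) and 2.16-fold in the knockout (log2 fold change 1.11 ± 0.22 (SE), adjusted p = 3.07e-04). In myotubes the overexpressor overlapped control (1.37, 0.913 and 1.75 against 1.40, 1.28 and 1.06 CPM) and the knockout was lower (0.717, 0.619 and 0.585 CPM; log2 fold change -0.95 ± 0.23 (SE), adjusted p = 0.00132). Dkk3, a divergent family member, was at 3.71, 3.63 and 3.07 CPM in control myoblasts against 0.140, 0.173 and 0.092 in the overexpressor and 0.430, 0.382 and 0.320 in the knockout. Control myotubes had 8.52, 10.7 and 8.62 CPM, while overexpressor myotubes had 0.178, 0.125 and 0.181 and knockout myotubes 0.785, 0.418 and 0.627. Dkk3 was thus 57.2-fold lower in overexpressor myotubes (log2 fold change -5.84 ± 0.23 (SE), adjusted p = 3.47e-13) and 15.2-fold lower in knockout myotubes (log2 fold change -3.92 ± 0.20 (SE), adjusted p = 8.45e-12). Dkk2 rose in control differentiation by 0.60 log2 units, a call lost with library totals (0.36) and without control myoblast library B or C or control myotube library A or B (0.57, 0.53, 0.51 and 0.58).

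All 3 tested R-spondins, which amplify Wnt signals at the receptor, were lower than control in the knockout at both stages. In the overexpressor Rspo1 was lower at both stages, Rspo3 was lower in myoblasts, and Rspo2 was higher in myoblasts and lower in myotubes. Rspo1 was at 1.89, 1.81 and 1.51 CPM in control myoblasts and 1.46, 1.40 and 2.00 CPM in control myotubes, and had no count in the 12 libraries of the other lines. Against 3 counts per library it was at least 26.9-fold lower in overexpressor and 30.2-fold lower in knockout myoblasts, and at least 39.2-fold and 29.6-fold lower in their myotubes. Rspo3 was at 2.79, 3.69 and 3.32 CPM in control myoblasts, 0.120, 0.625 and 0.300 in overexpressor and 0.108, 0.036 and 0.089 in knockout myoblasts (-3.23 ± 0.38 and -5.38 ± 0.46 log2 units from control, ± SE; adjusted p = 1.42e-06 and 1.75e-08). In control cells Rspo3 fell with differentiation to 0.246, 0.320 and 0.216 CPM (log2 fold change -3.65 ± 0.39 (SE), adjusted p = 1.76e-07). An exon of Rspo3 overlaps an opposite-strand gene, and counting without strand could add reads to it.

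Rspo2 changed side with differentiation. It was at 9.26, 10.2 and 9.45 CPM in overexpressor myoblasts against 3.37, 3.48 and 3.99 in control and 2.71, 2.39 and 2.35 in knockout myoblasts, so the overexpressor was 2.67-fold above control (log2 fold change 1.42 ± 0.16 (SE), adjusted p = 9.80e-07). In myotubes it was at 15.1, 13.3 and 12.0 CPM in control, against 0.846, 1.34 and 1.11 in overexpressor and 0.751, 0.804 and 0.439 in knockout cells, 12.2-fold and 19.9-fold below control (-3.61 ± 0.18 and -4.32 ± 0.19 log2 units, ± SE). It rose in control differentiation by 1.90 ± 0.16 log2 units and fell by 3.13 in the overexpressor and 1.88 in the knockout. These responses differed from that of control by -5.02 ± 0.24 log2 units (SE, adjusted p = 1.47e-11) in the overexpressor and by -3.77 ± 0.25 (adjusted p = 1.20e-09) in the knockout. The knockout myoblast call (-0.54 log2 units, adjusted p = 0.0112) was lost without control myoblast library C (-0.47, adjusted p = 0.0508).

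Among the R-spondin receptors, Lgr4 made up most of the message in every group, between 71.2% of the summed Lgr level per kb in overexpressor myoblasts and 96.8% in knockout myotubes. Lgr4 was at 92.5, 83.4 and 93.5 CPM in control myoblasts, 53.5, 65.1 and 54.7 in the overexpressor and 75.5, 72.7 and 77.8 in the knockout, and only the overexpressor was called lower (log2 fold change -0.64 ± 0.15 (SE), adjusted p = 0.0026). It was lower in myotubes than in myoblasts of all 3 lines, by 1.34, 0.83 and 1.76 log2 units in control, overexpressor and knockout. Lgr5, a marker of epithelial stem cells, was at 4.51, 4.71 and 4.79 CPM in control myoblasts and 2.37, 2.91 and 2.58 in knockout myoblasts, and had 1 count in the 3 overexpressor myoblast libraries. The ratio of control to overexpressor depth-scaled counts was 652 (exact 95% interval 117 to 25777), for counting error only. Overexpressor myotubes had no Lgr5 count, at least 72.1-fold below the 3.01, 2.84 and 3.07 CPM of control myotubes, and knockout myotubes had 0.205, 0.151 and 0.146 CPM. Lgr6, a marker of skin stem cells, separated the mutant lines. In myoblasts it was at 26.6, 28.3 and 26.2 CPM in the overexpressor, 13.5, 12.9 and 14.7 in control and 2.58, 2.55 and 1.87 in the knockout, a difference between the mutant lines of 11.6-fold (log2 fold change 3.54 ± 0.19 (SE), adjusted p = 1.81e-11). In myotubes it was at 4.87, 6.804 and 4.11 CPM in the overexpressor, 1.89, 2.701 and 2.04 in control and 0.734, 0.870 and 0.565 in the knockout, the same order without overlap.

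The neighbours Wnt6 and Wnt10a, 6.193 kb apart on the same strand of chromosome 1, were both lower in mutant myoblasts. Wnt10a (ENSMUSG00000026167, chr1:74791516-74804179 in GRCm38), a ligand known to act through β-catenin, was at 48.6, 50.7 and 52.8 CPM in control myoblasts, 3.33, 2.54 and 3.86 in the overexpressor and 17.4, 17.1 and 15.3 in the knockout. It was 15.6-fold lower in the overexpressor (log2 fold change -3.97 ± 0.14 (SE), adjusted p = 2.39e-13) and 3.05-fold lower in the knockout (log2 fold change -1.61 ± 0.13 (SE), adjusted p = 4.88e-09). Wnt6 was at 4.04, 3.40 and 4.21 CPM in control myoblasts, against 0.639, 0.345 and 0.647 in overexpressor and 2.15, 1.57 and 1.85 in knockout myoblasts, 7.12-fold (log2 fold change -2.83 ± 0.21 (SE), adjusted p = 3.93e-09) and 2.10-fold lower (log2 fold change -1.07 ± 0.18 (SE), adjusted p = 7.50e-05). Every mutant myoblast library lay below every control myoblast library for both genes. In myotubes Wnt10a stood at 25.4, 24.2 and 21.6 CPM in control, against 32.5, 25.7 and 27.1 in overexpressor and 68.8, 75.4 and 90.9 in knockout cells, where only the knockout was called, 3.30-fold higher (log2 fold change 1.72 ± 0.13 (SE), adjusted p = 1.12e-09). Wnt6 in myotubes was at 1.48, 1.58 and 1.26 CPM in control, against 1.60, 1.31 and 1.22 in overexpressor and 2.20, 2.43 and 2.61 in knockout cells, and again only the knockout was called higher (log2 fold change 0.75 ± 0.19 (SE), adjusted p = 0.00204). The Wnt6 promoter at chr1:74771642-74771891 on the + strand (RefSeq, GRCm38.p6) is shown as the one of the pair that the table holds; CpGs are in capitals, 28 in 250 bases with 79.6% G and C, a count that 7.61% of all promoters reach.
Wnt6: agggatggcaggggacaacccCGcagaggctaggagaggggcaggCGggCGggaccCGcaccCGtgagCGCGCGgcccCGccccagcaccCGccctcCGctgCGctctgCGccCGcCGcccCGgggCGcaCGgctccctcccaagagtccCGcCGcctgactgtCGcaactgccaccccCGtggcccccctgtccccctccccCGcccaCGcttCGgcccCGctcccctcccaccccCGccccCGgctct
The window holds 1 E-box CANNTG and no CTTTGA.

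Wnt10b, which favours muscle and bone over fat in mesenchymal cells, was lower than control in both mutant lines and lower in the knockout than in the overexpressor (3.73 ± 0.20 log2 units for overexpressor against knockout myoblasts, ± SE). It was at 29.0, 24.8 and 26.3 CPM in control myoblasts, 14.1, 15.8 and 13.4 in overexpressor myoblasts and 1.27, 0.619 and 1.37 in knockout myoblasts. The knockout was 24.6-fold below control (log2 fold change -4.62 ± 0.20 (SE), adjusted p = 2.05e-12) and the overexpressor 1.85-fold below (log2 fold change -0.89 ± 0.17 (SE), adjusted p = 2.72e-04). In control cells Wnt10b fell with differentiation to 4.98, 4.88 and 3.79 CPM (log2 fold change -2.55 ± 0.18 (SE), adjusted p = 5.03e-10), so knockout myoblasts lay below the level of control myotubes. Knockout myoblasts also carried muscle markers at 11531 to 14383 CPM against 1309.7 to 1519.8 CPM in control myoblasts, and the part of this in the Wnt10b difference was not tested. Overexpressor myotubes had 3.24, 2.71 and 3.25 CPM and knockout myotubes 1.67, 1.41 and 1.80; the overexpressor call in myotubes (-0.57 log2 units, adjusted p = 0.0113) was lost with library totals (-0.42, adjusted p = 0.0558) and without control myotube library A (-0.49, adjusted p = 0.0512).

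Wnt9a, a ligand known from joint formation, was the leading Wnt per kb in knockout myoblasts and in control and overexpressor myotubes. It was at 15.0, 16.7 and 15.4 CPM in control myoblasts, 14.1, 11.1 and 12.6 in the overexpressor and 31.0, 30.7 and 28.5 in the knockout, higher than control in the knockout (log2 fold change 0.94 ± 0.09 (SE), adjusted p = 4.96e-08) and lower in the overexpressor (-0.32 ± 0.09 log2 units). In myotubes it was at 40.6, 38.7 and 36.9 CPM in control, against 74.8, 67.7 and 64.1 in overexpressor and 36.5, 34.2 and 32.5 in knockout cells, higher than control in the overexpressor (log2 fold change 0.83 ± 0.09 (SE), adjusted p = 1.43e-07) and not called in the knockout. Wnt4 was lower than control in the overexpressor at both stages, at 5.77, 5.43 and 5.04 against 15.6, 14.1 and 16.6 CPM for myoblasts (log2 fold change -1.51 ± 0.14 (SE), adjusted p = 4.97e-08), with 4.13, 3.04 and 3.40 against 8.998, 8.51 and 9.29 CPM in myotubes (log2 fold change -1.34 ± 0.14 (SE), adjusted p = 1.23e-07). In the knockout Wnt4 was at 9.12, 7.88 and 8.93 CPM in myoblasts, below control (log2 fold change -0.83 ± 0.13 (SE), adjusted p = 3.27e-05), and at 8.61, 8.34 and 11.8 CPM in myotubes, where it overlapped control and was not called.

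Wnt5a, the β-catenin-independent ligand, had counts in the control line only. It was at 0.861, 0.692 and 0.601 CPM in control myoblasts and 4.79, 3.66 and 3.88 CPM in control myotubes, a rise of 5.69-fold (log2 fold change 2.51 ± 0.24 (SE), adjusted p = 6.54e-06), and had no count in the 12 mutant libraries. Against 3 counts per library it was at least 11.1-fold and 12.5-fold lower in overexpressor and knockout myoblasts and at least 99.7-fold and 75.1-fold lower in their myotubes. Its receptor gene Ror2 was at 4.81, 5.23 and 5.08 CPM in control myoblasts and had no count in mutant myoblasts. In myotubes the Ror2 mean was 2.91 ± 0.358, 0.327 ± 0.293 and 0.037 ± 0.034 CPM in control, overexpressor and knockout. The overexpressor mean covers 38, 0 and 30 counts in myotube libraries A, B and C. The Wnt5a paralog Wnt5b was at 1.13 ± 0.246 CPM in control and 1.31 ± 0.180 in overexpressor myoblasts, and was lower in knockout myoblasts (0.497 ± 0.062 CPM; log2 fold change -1.17 ± 0.27 (SE), adjusted p = 0.00117). In myotubes Wnt5b was lower in both mutant lines, at 0.297 ± 0.092 and 0.373 ± 0.081 against 0.994 ± 0.252 CPM. Wnt11, also mostly β-catenin-independent, was lower in overexpressor myotubes than in control (0.218 ± 0.017 against 0.895 ± 0.086 CPM; log2 fold change -2.02 ± 0.35 (SE), adjusted p = 6.78e-05) and was at 1.36 ± 0.621 CPM in knockout myotubes without a call. Exons of Wnt5a and Wnt11 overlap opposite-strand genes, so counting without strand could add reads to either.

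**Figure D3:**
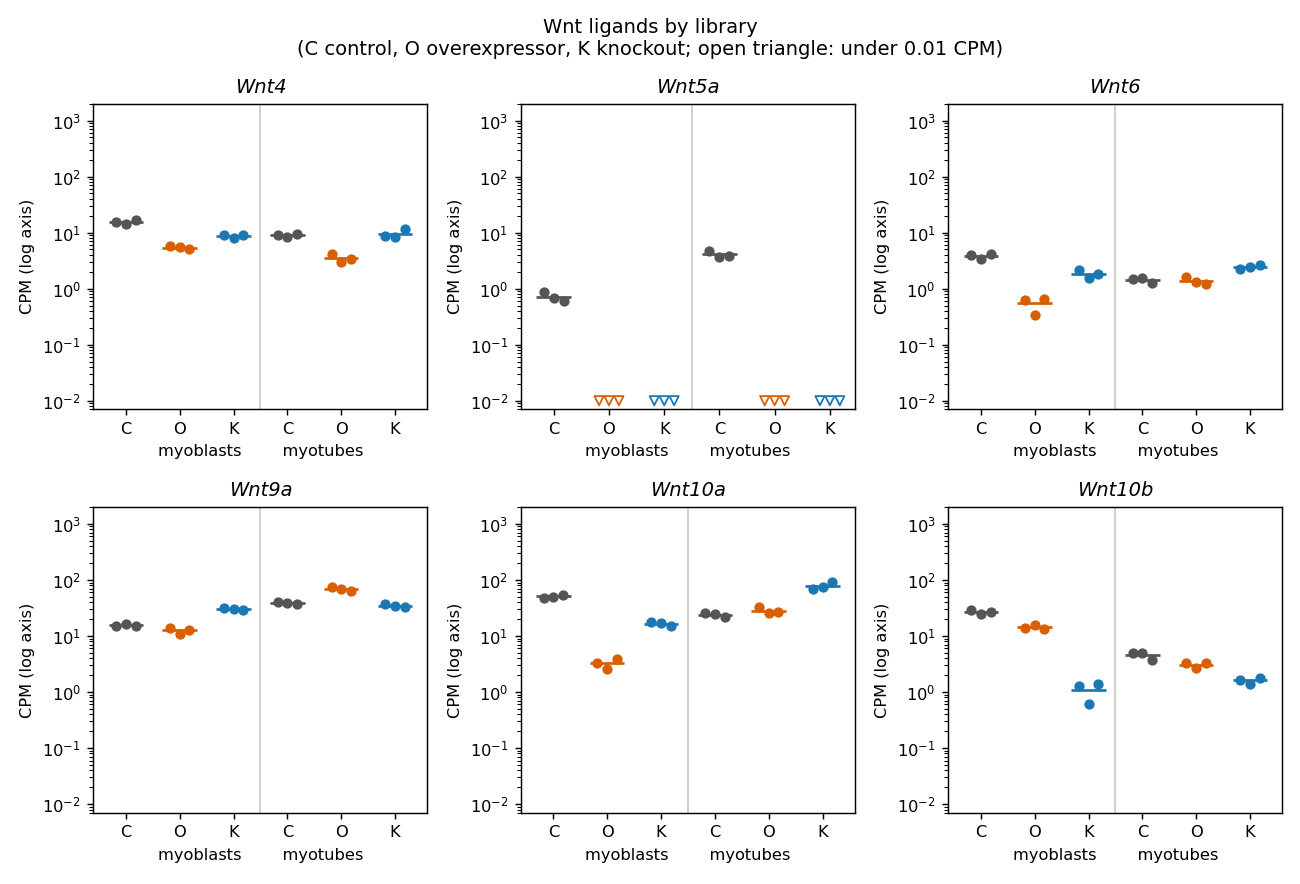
CPM of 6 Wnt ligands in every library on a log axis, with group means as bars; C, O and K are the control, overexpressor and knockout lines and open triangles are libraries under 0.01 CPM. Wnt10a is lowest in overexpressor myoblasts and highest in knockout myotubes, and Wnt10b is lowest in knockout myoblasts.

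The leading ligand per kb was not the same in all groups. Wnt10a made up 52.3% of the summed Wnt level in control myoblasts, Wnt10b 36.7% in overexpressor myoblasts and Wnt9a 46.9% in knockout myoblasts. The sum itself was 39.3 ± 1.03, 11.6 ± 0.522 and 19.3 ± 0.889 CPM per kb in that order. In myotubes the sum came to 26.7 ± 1.65 for control, 35.0 ± 3.25 for the overexpressor and 46.6 ± 4.68 for the knockout, with Wnt9a first in control (43.7%) and overexpressor (59.1%) and Wnt10a first in the knockout (67.9%). These sums are descriptions and were not tested.

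Log2 fold changes of the 9 tested Frizzled receptors against control ran from -2.07 for Fzd8 in overexpressor myoblasts to 1.58 for Fzd3 in overexpressor myotubes. Fzd2 was first in all 6 groups, with 37.1% to 42.1% of the summed level per kb, and Fzd1, Fzd6 and Fzd7 made up most of the rest. Fzd1 was at 135, 139 and 135 CPM in control myoblasts, 55.4, 58.2 and 55.7 in the overexpressor and 155, 147 and 146 in the knockout, 2.41-fold lower in the overexpressor (log2 fold change -1.27 ± 0.06 (SE), adjusted p = 1.93e-11) and not called in the knockout. Fzd6 was at 78.1, 77.7 and 83.6 CPM in control myoblasts, against 35.1, 39.2 and 33.6 in overexpressor and 60.5, 59.7 and 60.3 in knockout myoblasts, lower in both mutant lines (-1.15 ± 0.08 and -0.41 ± 0.08 log2 units, ± SE). Fzd7, a receptor known from satellite cells, was higher than control in both, at 62.6, 61.3 and 64.8 CPM in control, 100.2, 93.0 and 91.9 in overexpressor and 76.5, 72.9 and 69.0 in knockout myoblasts (0.60 ± 0.06 and 0.21 ± 0.06 log2 units). In myotubes it was at 97.7, 88.2 and 95.4 CPM in control, against 112, 117 and 111 in overexpressor and 157, 146 and 143 in knockout cells, again higher than control in both without overlap. Fzd2 was lower than control in overexpressor myoblasts (109.8 ± 6.76 against 165 ± 6.78 CPM) and higher in overexpressor and knockout myotubes (141 ± 8.68 and 154 ± 5.21 against 116 ± 7.18 CPM).

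Fzd3, Fzd4, Fzd5, Fzd8 and Fzd9 were less abundant. Fzd8 was lower than control in both mutant lines at both stages, at 6.89, 8.25 and 8.11 CPM in control, 1.98, 2.07 and 1.48 in overexpressor and 2.41, 2.22 and 2.63 in knockout myoblasts. In myotubes Fzd8 was at 6.33, 6.71 and 6.89 CPM in control, against 2.11, 1.36 and 1.53 in overexpressor and 1.81, 2.23 and 2.34 in knockout cells. The log2 fold changes against control were -2.07 and -1.68 in overexpressor and knockout myoblasts and -2.00 and -1.64 in their myotubes. Fzd3 was higher in both lines at both stages, at 10.3 ± 0.454, 19.0 ± 3.10 and 20.8 ± 0.936 CPM in control, overexpressor and knockout myoblasts and 5.62 ± 0.837, 16.9 ± 4.66 and 14.7 ± 3.19 CPM in myotubes. Fzd5 was at 15.0, 18.4 and 18.3 CPM in control, 13.1, 14.4 and 12.4 in overexpressor and 35.1, 35.0 and 31.9 in knockout myoblasts. In myotubes it was at 17.6, 18.04 and 16.4 CPM in control, against 40.4, 45.7 and 44.1 in overexpressor and 42.3, 36.9 and 33.6 in knockout cells. In the overexpressor it was thus below control as myoblasts (log2 fold change -0.38 ± 0.10 (SE), adjusted p = 0.00479). It was above control as overexpressor myotubes (2.499-fold, adjusted p = 1.62e-09), while the knockout was above control at both stages. Fzd9 was highest in knockout myotubes, at 8.86, 6.91 and 8.59 CPM against 3.18, 3.23 and 3.55 in control and 1.62, 1.88 and 2.17 in the overexpressor (log2 fold change 1.29 ± 0.15 (SE), adjusted p = 5.74e-07 for knockout against control). Fzd4 was at 12.0 ± 0.774, 15.1 ± 0.774 and 20.03 ± 0.877 CPM in control, overexpressor and knockout myoblasts and 22.5 ± 0.735, 9.99 ± 0.820 and 15.0 ± 2.56 CPM in myotubes, lower than control in both mutant lines as myotubes. Its overexpressor myoblast call (0.34 log2 units) was lost with library totals (0.30) and without control or overexpressor myoblast library C (0.28 and 0.30). The knockout myotube call of Fzd1 (0.15 log2 units, adjusted p = 0.0429) was lost without any of 5 of the 6 libraries compared, all but knockout library C, with log2 values of 0.11 to 0.16, and with no count filter (0.14, adjusted p = 0.161). The overexpressor myotube call of Fzd6 (-0.32) was lost with library totals (-0.17) and in a fit on the groups compared alone (-0.23). Exons of Fzd5 (1233 bases) and Fzd6 (152 bases) overlap opposite-strand genes, so counting without strand could add reads to either.

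**Figure D4:**
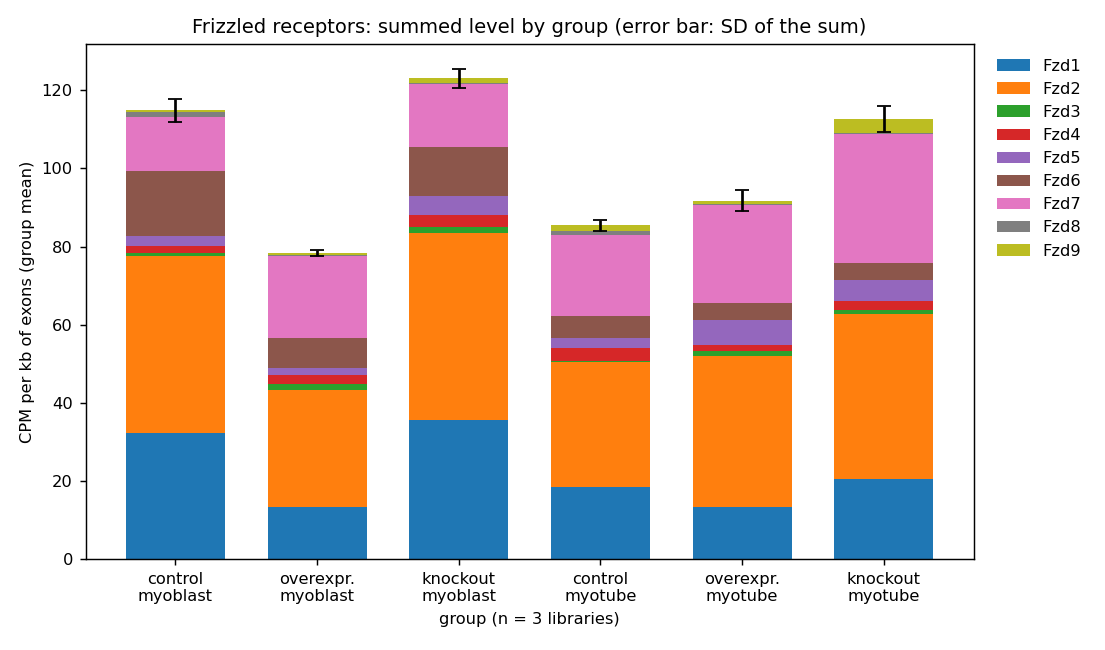
Summed Frizzled level in each group as CPM per kb of exons, stacked by receptor gene (group means, n = 3); the error bar is the SD of the sum. Fzd2 is the largest segment in all 6 groups, and the sum is lowest in overexpressor myoblasts at 78.3 ± 0.712.

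Differentiation moved most of these genes in the control line, 14 upward and 12 downward of the 30 tested, against 33.9% and 28.8% of all genes. In the overexpressor 9 rose and 13 fell (29.8% and 33.0% of all genes; 9 and 15 without overexpressor myotube library C), and in the knockout 8 rose and 12 fell (29.8% and 35.6%; 11 and 11 by DESeq2 size factors, 6 and 12 by library totals). The median log2 fold changes were -0.05, -0.16 and -0.19, and those of all tested genes 0.07, -0.02 and -0.08. The change from myoblast to myotube differed from that of the control line at 20 genes in the overexpressor, 9 with a more positive change and 11 with a more negative one, where 16.6% and 22.3% of all genes were called. Without overexpressor myotube library C these counts were 9 and 9. In the knockout it differed at 8 genes upward and 7 downward (20.2% and 29.9%). Both of these comparisons use the control libraries. The muscle marker list summed to 11531 to 14383 CPM in knockout myoblasts and 35318 to 43043 CPM in knockout myotubes, and the part of the higher starting level in the knockout responses was not tested.

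Among the 28 genes of the 6 families described by value, Wnt10a had the largest positive difference from control in both mutant lines. It fell in control differentiation (-1.09 ± 0.12 log2 units, ± SE) and rose in the overexpressor (3.13 ± 0.14) and the knockout (2.24 ± 0.13). The difference from control was 4.23 ± 0.19 (adjusted p = 6.88e-12) in the overexpressor and 3.33 ± 0.18 (adjusted p = 7.50e-11) in the knockout. Its neighbour Wnt6 fell in control (-1.43 ± 0.19), rose in the overexpressor (1.34 ± 0.22) and was not called in the knockout (0.38 ± 0.19). Wnt10b fell in control (-2.55 ± 0.18) and in the overexpressor (-2.23 ± 0.18); in the knockout it was at 0.58 ± 0.21, a call that ended without knockout myoblast library B (0.29) or knockout myotube library A (0.56) or C (0.51), with library totals (0.41) and in a fit on the groups compared alone (0.65). Sfrp4 and Rspo2 rose in control and fell in both mutant lines, with Sfrp4 at 2.03, -1.45 and -1.75 log2 units in control, overexpressor and knockout. Sfrp1 rose in control (2.15 ± 0.19) and fell in the overexpressor (-3.21 ± 0.35). Dkk2 fell in both mutant lines, by 2.15 and 1.47 log2 units. Lgr6 fell in all 3 lines, by 2.64 for control, 2.36 for the overexpressor and 1.67 for the knockout, and Fzd6 by 1.57, 0.74 and 1.54. Fzd7 rose in all 3, by 0.58, 0.26 and 1.03 log2 units.

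**Figure D5:**
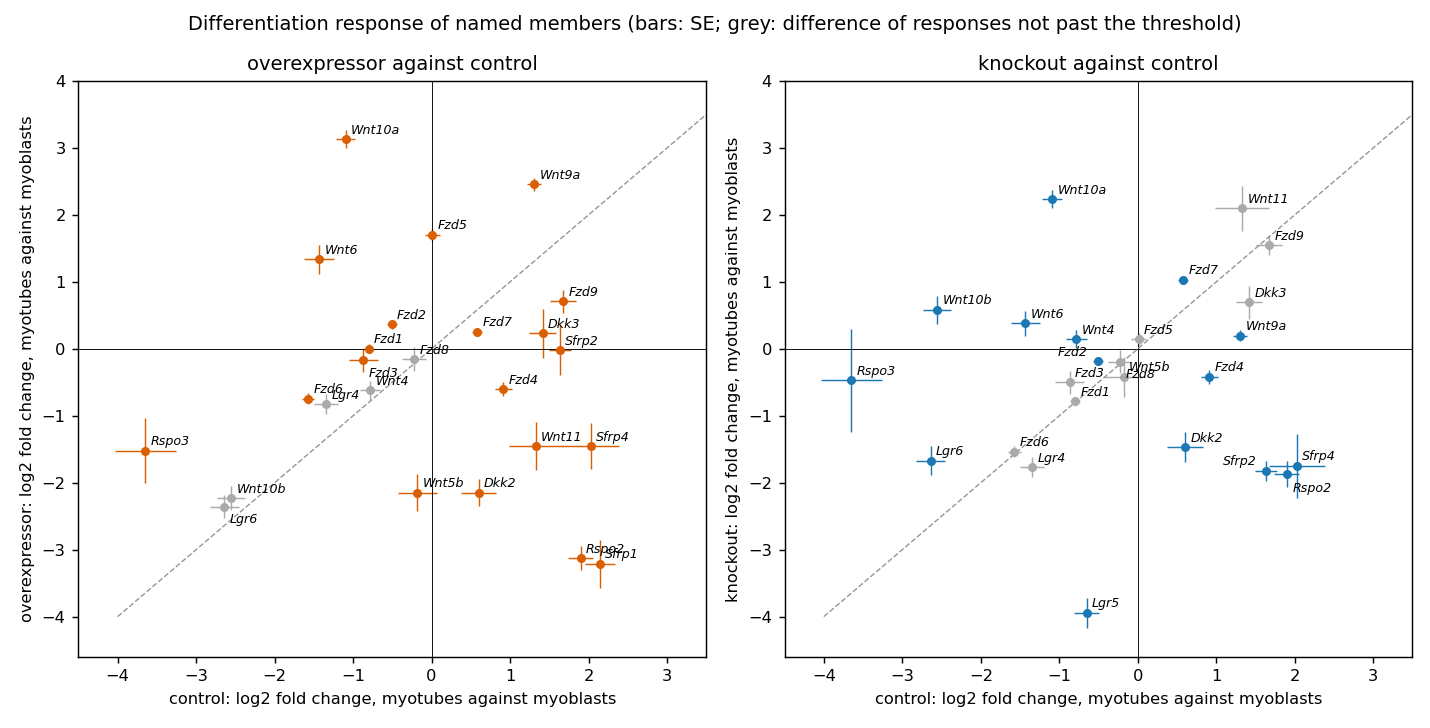
Log2 fold change from myoblasts to myotubes in the overexpressor (left) and knockout (right) against that in the control line, with SE bars; grey points are genes whose difference from control did not pass the threshold, and the dashed line marks equal change. Wnt10a lies in the upper left of both panels and Rspo2 in the lower right; genes without a count in a group of the panel's line or with 1 count in it (Rspo1 and Wnt5a in both panels, Lgr5 on the left, Sfrp1 on the right) are not drawn.

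Of 64 other genes of the pathway (coreceptors, extracellular and cytoplasmic regulators, nuclear partners, polarity genes and targets), 57 were tested, with the backgrounds given above. In myoblasts 25 were lower and 9 higher in the overexpressor and 24 lower and 13 higher in the knockout; in myotubes 34 were lower and 13 higher in the overexpressor and 29 lower and 17 higher in the knockout. Of 13 tested genes known as β-catenin targets, 9 were lower and 1 higher in overexpressor myoblasts and 10 lower and 1 higher in overexpressor myotubes, and in the knockout 5 were lower and 4 higher in myoblasts and 8 and 3 in myotubes. Axin2, a direct target and feedback inhibitor, was at 5.36, 6.42 and 4.63 CPM in control myoblasts, 0.719, 0.237 and 0.508 in the overexpressor and 4.86, 4.79 and 4.73 in the knockout. It was 11.1-fold lower in the overexpressor (log2 fold change -3.47 ± 0.24 (SE), adjusted p = 1.08e-09), and in myotubes it was at 12.6, 13.2 and 14.7 CPM in control, against 4.60, 3.21 and 4.14 in overexpressor and 11.3, 10.2 and 12.0 in knockout cells, 3.39-fold lower in the overexpressor (log2 fold change -1.76 ± 0.18 (SE), adjusted p = 1.52e-07). The knockout was not called for Axin2 at either stage (-0.19 ± 0.18 and -0.27 ± 0.18 log2 units, ± SE). Lef1, a DNA-binding partner of β-catenin, was at 13.4 ± 0.484, 12.9 ± 0.462 and 25.3 ± 0.870 CPM in control, overexpressor and knockout myoblasts, higher in the knockout (log2 fold change 0.92 ± 0.10 (SE), adjusted p = 2.14e-07). In myotubes Lef1 was higher than control in the overexpressor (0.53 ± 0.10 log2 units, adjusted p = 1.15e-04) and the knockout (0.71 ± 0.10, adjusted p = 3.70e-06). It was the 1 listed target called higher in overexpressor myotubes. β-catenin itself (Ctnnb1) was at 826 ± 23.6, 700.0 ± 14.6 and 755 ± 14.3 CPM in control, overexpressor and knockout myoblasts and 517 ± 19.6, 444 ± 24.5 and 449 ± 23.8 CPM in myotubes. The coreceptor Lrp6 was at 99.9 ± 8.54 CPM in control and 53.3 ± 13.4 in knockout myotubes (log2 fold change -0.90 ± 0.16 (SE), adjusted p = 1.52e-04). Overexpressor myotube libraries A, B and C held 4980, 5892 and 7921 raw Lrp6 counts, against 5304, 3977 and 5992 in control. TMM-scaled depths of the same libraries were 67337450, 79950977 and 71992971 counts in the overexpressor and 52787688, 43691141 and 55439925 in control. The raw Lrp6 counts are not scaled for this larger overexpressor depth and do not give the order of the groups. Myoblast libraries held 4126 to 5273 raw Lrp6 counts in control, 3365 to 4242 in the overexpressor and 3858 to 4831 in the knockout. Their TMM-scaled depths were 44893409 to 53403208, 43275830 to 50096272 and 46483304 to 56194485 counts in that order. Overlap of these raw ranges is thus not overlap of depth-scaled levels.

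By a rule of size, 25 genes of the list were among its 3 highest or 3 lowest calls in at least 1 comparison with at least 5 CPM in the higher group, and these include Axin2, Lef1 and Ror2. Trabd2b, a membrane protease that inactivates Wnts, rose in control differentiation from 51.3, 50.6 and 45.9 to 506, 511 and 505 CPM (log2 fold change 3.36 ± 0.07 (SE), adjusted p = 1.01e-16) and stayed at 19.97, 17.4 and 20.03 CPM in overexpressor and 16.1, 15.6 and 15.2 in knockout myotubes, 26.5-fold and 32.4-fold below control. Porcn, the enzyme that attaches the lipid of Wnts, rose in differentiation of all 3 lines. It went from 18.2 ± 0.656 to 87.9 ± 3.95 CPM in control (log2 fold change 2.27 ± 0.10 (SE), adjusted p = 4.85e-13), from 9.15 ± 1.33 to 138 ± 6.83 CPM in the overexpressor (log2 fold change 3.92 ± 0.11 (SE), adjusted p = 1.57e-15) and from 20.8 ± 1.79 to 82.6 ± 8.25 CPM in the knockout. Its rise was larger in the overexpressor than in control by 1.64 ± 0.13 log2 units (SE, adjusted p = 1.94e-08), and the knockout rise was not called different from control (-0.29 ± 0.13). Prickle1, a planar polarity protein, was higher in overexpressor than control myotubes (38.6 ± 0.576 against 9.39 ± 0.152 CPM; log2 fold change 2.04 ± 0.06 (SE), adjusted p = 2.04e-14). It was also higher in knockout myotubes (1.23 ± 0.06 log2 units, ± SE). Tnfrsf19, a receptor of the TNF receptor family and a listed target, was at 8.58 ± 0.530 CPM in control myotubes, 0.199 ± 0.065 in those of the overexpressor and 11.8 ± 0.422 in those of the knockout. Frzb, also called Sfrp3 and so a secreted antagonist outside the symbol rule, is given whatever its level. It was at 0.076 ± 0.067 CPM in control and 1.12 ± 0.338 CPM in knockout myotubes, and overexpressor myotube libraries held 0 to 4 counts. Myoblast libraries held 14 to 37 Frzb counts in the knockout, 0 to 2 in control and 0 to 1 in the overexpressor.

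The other genes named by the rule of size are given here mostly by log2 values. These values are for comparisons in which the rule named the gene, so a line left out is not thereby unchanged. In myotubes the receptor kinase gene Ror1 was at 5.78 ± 0.449 CPM in control and 0.193 ± 0.085 in the knockout (-4.85 ± 0.38 log2 units, ± SE). Overexpressor myotube libraries held 27, 39 and 55 Ror1 counts, against 292, 275 and 305 in control. The polarity gene Prickle2 was at 5.09 ± 0.874 CPM in control myotubes and had 0 to 5 counts in knockout myotube libraries. Overexpressor myotube libraries held 29 to 67 Prickle2 counts, against 227 to 286 in control. Pygo1, a nuclear partner of β-catenin, was lower in overexpressor than control myotubes (-4.54 ± 0.25). Its counts were 16 to 35 in overexpressor, 12 to 25 in knockout and 267 to 489 in control myotube libraries. Ccn4, a target also called Wisp1, was lower than control in overexpressor myoblasts (-1.83 ± 0.12). With differentiation it rose in the overexpressor (1.13 ± 0.12) and fell in the knockout (-1.29 ± 0.12). Among parts of the β-catenin destruction complex and its partners, Amer1 was lower in knockout than control myoblasts (-1.97 ± 0.12) and Apc2 was higher in overexpressor than control myoblasts (1.06 ± 0.16). Apc was higher in overexpressor than knockout myotubes (1.80 ± 0.26). Raw Apc counts of libraries A, B and C were 4048, 4894 and 8470 in overexpressor and 1714, 1270 and 870 in knockout myotubes. Control myotubes held 3244, 2308 and 4155 Apc counts at a smaller depth than the overexpressor. The highest Apc count was thus in overexpressor library C, which stood apart from its group, and the knockout lay below control. Daam1 and Vangl2, which act in polarity signalling, were higher than control in overexpressor myoblasts, 2.01-fold and 1.58-fold. Kremen1, a Dkk receptor, was higher than control in knockout myoblasts (0.75 ± 0.07) and knockout myotubes (0.66 ± 0.07). Between the mutant lines, Nkd2, a Dvl-binding inhibitor, and Myc were lower in overexpressor than knockout myoblasts (-1.58 ± 0.12 and -1.39 ± 0.09). Dvl2 was lower in overexpressor than knockout myotubes (-1.04 ± 0.08). With differentiation Ccnd1, cyclin D1, fell in control, overexpressor and knockout (-2.38 ± 0.20, -2.53 ± 0.20 and -3.01 ± 0.21). Tcf7l2 fell in control (-1.36 ± 0.10). Its raw counts were also lower in mutant myotubes, at 774 to 1096 against 1274 to 1551 in overexpressor myoblasts. In the knockout they were 713 to 1112 against 1900 to 2335. The coreceptor Lrp5 fell in the overexpressor (-1.67 ± 0.07) and the membrane inhibitor Apcdd1 fell in the knockout (-1.52 ± 0.20). Apcdd1 had 544 to 576 counts in control myoblasts and 1727 to 2202 in control myotubes. Overexpressor and knockout myotubes had 203 to 465 and 104 to 127. The differentiation change of Ptk7, a polarity coreceptor, was more positive in the knockout than in control (0.80 ± 0.11).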

How the data were processed

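The authors deposited raw read counts per gene for 18 libraries of polyadenylated RNA from C2C12 cells. Per the submitters' processing notes, STAR 2.7.9a, featureCounts (Subread 2.0.3), FastQC 0.11.7, DESeq2 1.32.0 and mm10 were used; the strand setting is not given in the sources used here. Of 55450 identifiers, 55190 matched GENCODE vM21 (GRCm38), and the unmatched ones held 0.00589% of the counts. Totals of 41544358 to 79140702 counts put 3 counts at 0.0375 to 0.0693 CPM.

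Groups came from the labels. One edgeR 4.0.16 quasi-likelihood model over all 18 libraries (6 groups, 12 residual degrees of freedom, TMM, filterByExpr by group, 17912 genes) gave 11 comparisons, with Benjamini-Hochberg adjusted p under 0.05. The fit was tested on simulated data. These held far fewer changed genes than were called here, so large shifts in scaling were not covered. CPM values are counts over TMM-scaled depth, and levels between genes are per kb of exon union. Members with a group mean of at least 1 CPM, and Axin2, Lef1, Ctnnb1, Lrp6 and Frzb, are given by value, and other pathway genes by the rule of size stated with them. A deposited table of transformed values was not used. The members and gene lists were chosen with earlier results of these data known. Replicate letters showed no clear pairing of libraries: of 45 same-letter correlations, 4 passed 0.1 (-0.36 to 0.26). With 3 libraries per group this cannot exclude shared batches. Alternatives were other scalings, filters, DESeq2 1.42.0, fits on the groups compared, a replicate block and leaving out each library.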

Additional observations from a re-analysis of the deposited data

Results flagged for a closer look

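The change from myoblasts to myotubes differed between a mutant line and the control line for the genes below, by a test of that difference in edgeR's quasi-likelihood model; values are differences of log2 fold changes, mutant minus control. Both mutant lines were compared with the same control libraries.

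Among ligands, the difference in the overexpressor was 4.23 for Wnt10a, 2.77 for Wnt6 and 1.15 for Wnt9a, and -2.78 for Wnt11 and -1.97 for Wnt5b. In the knockout it was 3.33 for Wnt10a, 3.14 for Wnt10b, 1.81 for Wnt6, 0.93 for Wnt4 and -1.11 for Wnt9a, which was of opposite sign to the overexpressor value.

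Among receptors, the overexpressor difference was 1.70 for Fzd5, 0.87 for Fzd2, 0.83 for Fzd6, 0.80 for Fzd1 and 0.69 for Fzd3. It was -1.51 for Fzd4, -0.97 for Fzd9 and -0.32 for Fzd7. In the knockout the difference was 0.46 for Fzd7, 0.32 for Fzd2 and -1.33 for Fzd4, and among R-spondin receptors 0.97 for Lgr6 and -3.29 for Lgr5. The Fzd7 value in the overexpressor was no longer past the threshold without overexpressor myotube library C (-0.19), with DESeq2 size factors (-0.21), with library totals (-0.13) or by the DESeq2 Wald test (-0.21). The Fzd3 value fell short without any of 3 control myoblast libraries, overexpressor myoblast library A or C, or control myotube library A or B (0.60 to 0.73), and with no count filter (0.73, adjusted p = 0.0855).

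Among R-spondins and antagonists, the overexpressor difference was -5.36 for Sfrp1, -5.02 for Rspo2, -3.48 for Sfrp4, -2.75 for Dkk2, -1.65 for Sfrp2 and -1.18 for Dkk3, and 2.13 for Rspo3. In the knockout it was -3.78 for Sfrp4, -3.77 for Rspo2, -3.46 for Sfrp2 and -2.07 for Dkk2, and 3.18 for Rspo3. Overexpressor libraries held 4 to 13 counts of Dkk3 and 12 to 45 of Sfrp2 each. Sfrp1 had 2 to 5 counts in overexpressor myotube libraries, and Sfrp4 2 to 20 in knockout myotube libraries. Knockout libraries held 1 to 5 counts of Rspo3 each and overexpressor libraries 6 to 29. Its knockout value was lost without knockout myotube library C (2.83, adjusted p = 0.0607). The overexpressor value of Dkk3 was lost without any of 6 libraries (-0.98 to -1.16): control myoblast C, overexpressor myoblast A or B, control myotube B and overexpressor myotube B or C. The same call ended by the DESeq2 Wald test (-1.07, adjusted p = 0.0619), with no count filter (-1.15, adjusted p = 0.0639) and under both other scalings, namely library totals (-0.99, adjusted p = 0.0732) and size factors of DESeq2 (-1.07, adjusted p = 0.0521).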

How the results depend on the processing

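The counts of members past the threshold stayed within 1.5 times the reported count in each of the 11 comparisons under every alternative run. Leaving out 1 library at a time gave 24 to 25 in overexpressor against control myoblasts, 22 to 25 in knockout against control myoblasts, 22 to 26 and 25 to 27 in the same comparisons of myotubes, and 22 to 25 and 21 to 23 between the mutant lines as myoblasts and myotubes. It gave 25 to 26, 21 to 24 and 17 to 20 for differentiation of control, overexpressor and knockout, and 18 to 21 and 14 to 17 for the differences of differentiation from control. With the replicate block, which rests on shared letters only, the counts were 25, 23, 24, 24, 26, 21, 26, 22, 21, 19 and 15, in the order myoblasts (overexpressor and knockout against control, then against each other), myotubes, differentiation and its 2 differences; 10 of the 45 same-letter pairs correlated best with their own letter. The block ended the calls of Lgr4 between mutant myoblasts (-0.38), Fzd1 in knockout myotubes (0.15), the Fzd3 difference in the overexpressor (0.69) and Frzb in knockout differentiation (1.13), with adjusted p of 0.0639, 0.0535, 0.0605 and 0.052, and of the calls tested no other. Of 236 calls of members named with values, 218 held under all alternatives that tested them, none reversed, and 18 were lost under at least 1. Those not given with the results were Lgr4 and Wnt11 between mutant myoblasts, Rspo2 between mutant myotubes, Rspo3 in overexpressor differentiation, and Dkk3, Fzd2 and Fzd3 in knockout differentiation; the cause was not tested. Of 90 calls of the other pathway genes named, 85 held and none reversed; the 5 lost under at least 1 were Ctnnb1 in overexpressor and in knockout myotubes, Lef1 in control differentiation, Frzb in knockout differentiation and Lrp6 in the knockout difference of differentiation. Rspo3 had 1 to 5 counts in each knockout library, and the part of depth in its lost call was not tested.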
